A study of Homo sapiens with 4 samples.

Results

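Heat shock genes encode the protein-folding machinery of the cell, and 10 of them were followed here in a human glioma line and its drug-resistant derivative. The set holds the transcription factor HSF1, the cytosolic chaperones HSPA8, HSPA4, HSPH1, HSP90AA1 and HSPB1, the mitochondrial chaperones HSPA9, HSPD1 and HSPE1, and the co-chaperone BAG3. They were taken by symbol, through GENCODE 29, from a deposited table of 58219 Ensembl gene IDs, and each symbol matched a single ID. All 10 passed the filter on low values that left 16132 genes to test. The 2 TMZ-resistant libraries come from GBM8401 cells kept for 140 days in medium with 200 µM temozolomide (TMZ), an alkylating drug used against glioblastoma. The 2 parental libraries come from GBM8401 cells, described by the submitters as a malignant glioma line of the brain. Both lines were grown in RPMI1640 with fetal bovine serum. The sources used here do not say whether TMZ was in the medium at harvest, and a single derived line gave both resistant libraries, so the tests measure the spread between cultures and not between independently derived resistant lines. The study set out to profile RNAs linked to this resistance.

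The values are scaled fragment numbers per gene, not divided by gene length, and they correspond to an estimated 27019114 to 30759700 fragments per library. Of all genes tested 37.1% changed (limma, adjusted p under 0.05): 16.2% were higher and 20.9% lower in resistant cells. Of the changed genes 43.7% were higher, a share of 56.9% when libraries were scaled by their totals alone. Of 10 glioma and neural markers fixed for a check of the label, 6 were tested. VIM, NES and CD44 were high in both lines, and with SOX9 they were the 4 that were lower in resistant cells. The astrocyte markers GFAP, S100B and AQP4 stood at 4.25 or less in every library. SOX2 at 10.5 or less and FABP7 at 21.2 or less were also low, and OLIG2 ran from 183 to 237. Markers of other cell types moved in part with the groups: 1 of 5 tested haematopoietic markers was higher, 3 of 5 endothelial markers were lower, 2 of 5 epithelial markers were higher and 1 of 5 neuron markers was higher. The summed values of the epithelial list were 35201 and 36865 in resistant libraries and 18587 and 20478 in parental libraries, those of the haematopoietic list 1050 and 1101 in resistant and 685 and 610 in parental libraries. Endothelial sums were 928 and 815 in resistant and 1326 and 1536 in parental libraries, and neuron sums 2698 and 3295 in resistant and 2382 and 3009 in parental libraries. KRT8 and KRT18 made up most of the epithelial sum and CD68 most of the haematopoietic one, while CDH1, EPCAM, KRT19, PTPRC and CD14 overlapped between the groups. AIF1 was listed at 0 throughout, but it lies in a stretch of chromosome 6 where most coding genes were. The part of these markers in the results on chaperones was not tested.

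Under stress, HSF1 is released from chaperones, forms trimers and binds heat shock elements, short inverted repeats of the bases GAA, in the promoters of chaperone genes. HSP70 proteins such as HSPA8 bind exposed hydrophobic stretches of client proteins, J-domain proteins load them, and exchange factors such as HSPH1, HSPA4 and the BAG proteins release them. HSP90 then matures selected clients, many of them kinases and hormone receptors, while HSPA9, HSPD1 and HSPE1 fold proteins inside mitochondria.

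The chaperone genes were lower in resistant cells, while HSF1 and BAG3 did not pass the test. Of the 10 genes 8 fell, 0 rose and 2 did not pass the test (limma, adjusted p under 0.05), where 20.9% of all genes tested fell. Among the 5397 genes with a mean value of at least 1000, the range that holds all 10, 35.2% fell and 15.1% rose. The median log2 fold change of the 10 genes was −0.52, against −0.02 over all genes tested, and single genes ran from −1.17 to −0.04. In 9 of the 10 genes both resistant libraries lay below both parental ones, an arrangement that 36.4% of all genes tested showed. In 0 of the 10 did both lie above, which 32.2% of all genes tested showed, and 68.6% of all genes tested had groups apart in either direction. Together the 10 genes made up 0.686% and 0.671% of the deposited total in resistant libraries, against 1.004% and 0.920% in parental libraries. In bulk RNA fewer cells expressing a gene and less RNA per cell cannot be told apart.

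**Figure D1:**
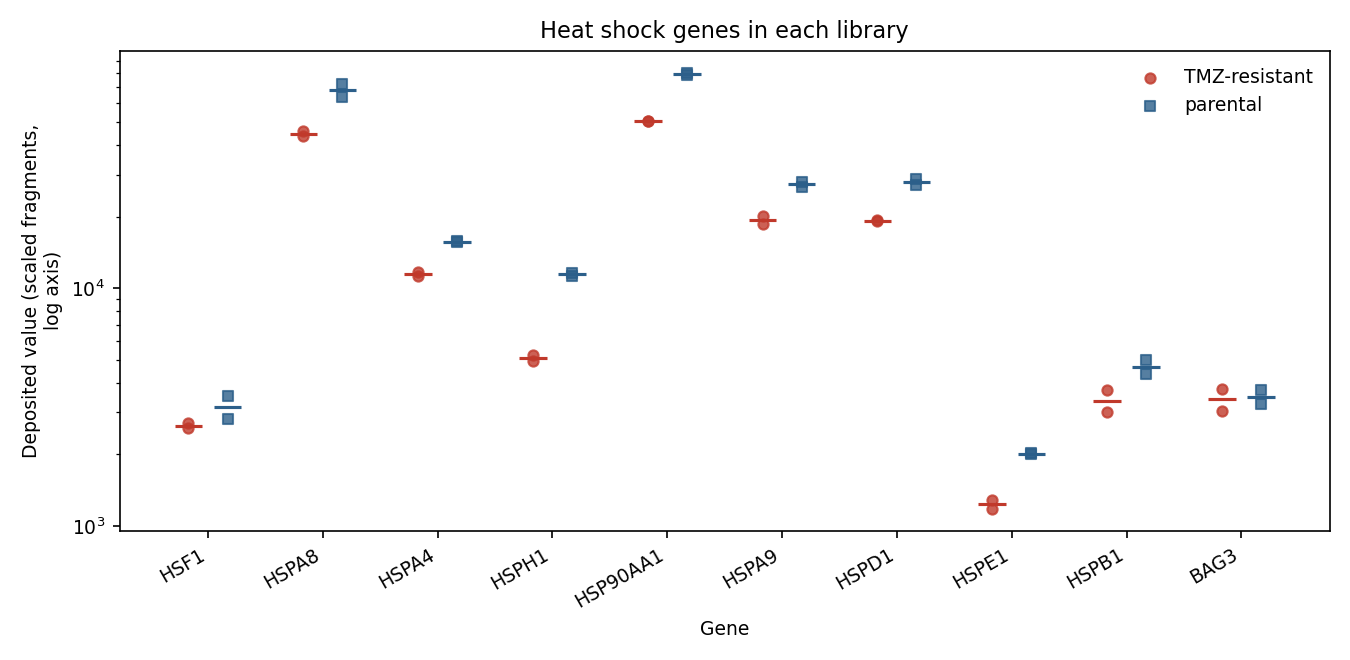
Deposited values (scaled fragments, log axis) of the 10 genes in each library, with resistant libraries as red circles, parental libraries as blue squares and group means as bars. The groups are apart for every gene but BAG3, whose resistant libraries at 3056 and 3774 span its parental ones.

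The promoters were searched for heat shock elements because 8 of these genes fell. RefSeq promoter windows of 300 bases (250 before and 50 after a start) were found for 9 of the 10 genes, HSF1 not among them. The motif of 2 inverted repeats, GAANNTTC or TTCNNGAA, each its own reverse complement, was in 13.5% of all 35116 windows. The motif of 3 repeats, GAANNTTC followed by NNGAA or TTCNNGAA followed by NNTTC, which are reverse complements of each other, was in 0.490%, and any match to it also holds the shorter one. Both strands were thus covered. The longer motif was found for HSPA8, HSPD1 and HSP90AA1, and the shorter alone for HSPA9, where it spans the start, and for HSPB1. HSPD1 and HSP90AA1 each had a further window, at starts 197500274 and 102139749, that held neither motif. A gene with more than 1 window had more room for a match. The sites are shown 5′ to 3′ on the strand of the gene with the motif in capitals, the longer ones in full and HSPB1 and HSPA9 as examples of the shorter.
HSPA8, chr11:123062348-123062372, minus strand, 230 to 218 bases before the start: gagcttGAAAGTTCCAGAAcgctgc
HSPA8, chr11:123062173-123062197, minus strand, 55 to 43 bases before the start: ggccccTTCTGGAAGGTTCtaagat
HSPD1, chr2:197500062-197500090, minus strand, 245 to 228 bases before the start nearer the gene body: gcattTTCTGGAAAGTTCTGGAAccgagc
HSP90AA1, chr14:102087114-102087138, minus strand, 88 to 76 bases before a start: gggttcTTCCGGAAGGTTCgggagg
HSPB1, chr7:76302485-76302504, plus strand, 182 to 175 bases before the start: acgagaGAAGGTTCcagatg
HSPA9, chr5:138575392-138575411, minus strand, across the start: ggaggtTTCCAGAAgcgctg
The 3 genes with the longer motif fell by 0.61, 0.54 and 0.66 on the log2 scale. HSPH1, the gene with the largest fall, and HSPA4, HSPE1 and BAG3 had neither motif in these windows. HSP90AA1 also holds a shorter match 68 to 61 bases before the same start. All sites but that of HSPB1 overlap an annotated exon of their own gene. That of HSPD1 also overlaps an annotated exon of HSPE1. It lies just outside the HSPE1 window, which begins at position 197500129, so the lack of a match for HSPE1 depends on the window edge. A match describes letters in a window and is not evidence of binding, and the lack of one says nothing about the factor.

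Over the whole table, 58 tested genes had the longer motif in a window. Of these 19, or 32.8%, fell and 5, or 8.62%, rose, where 23.8% fell and 16.7% rose among the 10854 tested genes with any window. Their median log2 fold change was −0.06, against −0.03. For the 1535 genes with the shorter motif the shares were 24.2% and 17.5%. Among those with the longer motif that fell were CHORDC1, DNAJA1 and HSP90AB1 beside the 3 named above, which are counted in the 19. Genes outside the chaperone lists, such as PGAM5, DOCK10 and XPO1, fell too. DNAJB6 was among those that rose, as were SPRY3 and PDE11A from outside the lists. Of all tested genes with a mean value of at least 1000, 35.2% fell and 15.1% rose. A link between the motif and the fall was not tested.

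HSF1, the master regulator of the response (ENSG00000185122, chromosome 8, 144291591 to 144314722, plus strand), had values of 2587 and 2702 in resistant libraries and 2820 and 3508 in parental libraries. The groups did not overlap, but the parental libraries were far apart from each other. Means were 2645 ± 80.7 in resistant and 3164 ± 486 in parental cells (SD, n = 2 each), a log2 fold change of −0.25 ± 0.11 (SE) with an interval of −0.50 to −0.0019 at 95% confidence. The difference did not pass (limma, adjusted p = 0.105). The log2 fold change was −0.41 without parental replicate 1 and −0.09 without parental replicate 2. HSF1 passed in the former fit and not in the latter, and each rests on 1 parental library. With a replicate block the log2 fold change was the same −0.25 and HSF1 passed (limma, adjusted p = 6.48e-04). The labels, however, tie the replicate numbers to no shared day or culture. HSF1 overlaps DGAT1 on the other strand by 139 bases. The other members of its family gave no call either: HSF2, a relative that forms mixed trimers with HSF1, had 521.9 and 620 in resistant and 595 and 615 in parental libraries (log2 fold change −0.09 ± 0.12, adjusted p = 0.601). HSF4 reached 0.64 ± 0.26 (adjusted p = 0.0908), from values of 106 and 123 in resistant and 56.7 and 93.3 in parental libraries. HSBP1, a small protein that binds HSF1 trimers, stood at −0.21 ± 0.09 (adjusted p = 0.122). None of the 5 tested members of this list passed in limma, and HSF1 and HSF4 were the 2 with an unadjusted p under 0.05 (0.0486 and 0.0402). In other settings the list did have calls: 1 member was higher with library totals alone, and with the replicate block 1 was higher and 2 were lower. Calls also appeared when either parental library was left out, and none when either resistant library was.

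By values over the 4 libraries, centred on each gene's own mean on the log2 scale, the 3 coding genes nearest to HSF1 were PANK1, AGPAT2 and TPST2, at Euclidean distances of 0.0087, 0.023 and 0.025. With 4 libraries such likeness is weak, and 114 of 13312 coding genes lay within 0.1 of HSF1.

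HSPH1 (chromosome 13, 31134974 to 31162388, minus strand) showed the largest difference of the 10 genes. It encodes HSP105, a member of the HSP110 family that exchanges nucleotide on HSP70 and helps to dissolve aggregates. Values were 4955 and 5214 in resistant libraries, against 11603 and 11271 in parental libraries. Both resistant libraries were below the parental range by more than any spread within a group. The means of 5084 ± 183 in resistant and 11437 ± 234 in parental cells (SD, n = 2 each) gave a 2.25-fold fall, a log2 fold change of −1.17 ± 0.07 (SE; limma, adjusted p = 3.83e-05). HSPA4 (chromosome 5, 133051962 to 133106449, plus strand), the second exchange factor of this family, had 11246 and 11637 in resistant libraries and 15730 and 15649 in parental libraries. It fell 1.37-fold, with a log2 fold change of −0.46 ± 0.07 (adjusted p = 0.00123). The log2 ratio of HSPH1 to HSPA4, per kilobase of exon, was −1.89 and −1.86 in resistant and −1.14 and −1.18 in parental libraries. This ratio differed by −0.71 between the groups, which did not overlap (exact two-sided permutation test, p = 0.333, the smallest that 2 against 2 libraries allow). HSPA4L, the remaining cytosolic member, did not pass (log2 fold change −0.10 ± 0.08, adjusted p = 0.39).

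HSPA8 encodes HSC70, the constitutive HSP70 of the cytosol that also serves chaperone-mediated autophagy and clathrin uncoating. On chromosome 11 (123057489 to 123063230, minus strand), it had 43429 and 45720 in resistant libraries and 71948 and 63901 in parental libraries. It fell 1.52-fold, with group means of 44575 ± 1620 in resistant and 67924 ± 5690 in parental cells (SD, n = 2 each) and a log2 fold change of −0.61 ± 0.08 (SE; limma, adjusted p = 6.93e-04). The groups did not overlap, and the parental spread was the wider.

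HSP90AA1, the stress-inducible form of cytosolic HSP90 (chromosome 14, 102080738 to 102139699, minus strand), had the highest level of the 10 genes per kilobase. Its values were 50297 and 50587 in resistant libraries, against 80614 and 78949 in parental libraries. That is a 1.58-fold fall with little spread in either group, a log2 fold change of −0.66 ± 0.06 (adjusted p = 1.97e-04). HSP90AB1, the constitutive form, also fell, 1.30-fold, with 59017 and 57520 in resistant libraries and 77456 and 74210 in parental libraries (log2 fold change −0.38 ± 0.06, adjusted p = 0.00241). The log2 ratio of HSP90AA1 to HSP90AB1, per kilobase of exon, was −1.05 and −1.002 in resistant and −0.76 and −0.73 in parental libraries. This ratio was lower in both resistant libraries, by −0.28 on the log2 scale (exact two-sided permutation test, p = 0.333). The other HSP90 genes gave no call, and without the mean-variance trend the family had 1 member lower in place of 2: HSP90B1, which encodes the endoplasmic reticulum form GRP94, had −0.01 ± 0.07 (adjusted p = 0.927), and the mitochondrial TRAP1 had −0.09 ± 0.09 (adjusted p = 0.433).

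All 3 mitochondrial chaperone genes of the set fell. HSPA9, mortalin, which pulls imported proteins into the matrix (chromosome 5, 138553756 to 138575724, minus strand), had 20070 and 18560 in resistant libraries and 27932 and 26623 in parental libraries. It fell 1.41-fold, with a log2 fold change of −0.50 ± 0.07 (SE; limma, adjusted p = 0.00117). HSPD1, which encodes the barrel-forming chaperonin HSP60 (chromosome 2, 197486581 to 197516737, minus strand), had 19170 and 19301 in resistant libraries and 28706 and 27072 in parental libraries. It fell 1.45-fold, a log2 fold change of −0.54 ± 0.07 (adjusted p = 6.40e-04). HSPE1, the lid of the same barrel (chromosome 2, 197499994 to 197503457, plus strand), had 1179 and 1286 in resistant libraries and 2020 and 2011 in parental libraries. Its fall was 1.64-fold, a log2 fold change of −0.71 ± 0.08 (adjusted p = 5.39e-04).

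In none of these mitochondrial genes did the groups overlap. Both resistant libraries lay below both parental ones, as they did in 36.4% of all genes tested. The log2 ratio of HSPA9 to HSPD1, per kilobase, was −0.89 and −1.02 in resistant and −0.999 and −0.98 in parental libraries, and the groups overlapped. For HSPD1 over HSPE1 that ratio was 2.92 and 2.81 in resistant and 2.73 and 2.65 in parental libraries, a difference of 0.18 (exact two-sided permutation test, p = 0.333). HSPD1 and HSPE1 are neighbours read in opposite directions. In RefSeq (GRCh38.p14) 1 of the HSPD1 starts lies 105 bases from the HSPE1 start, and another start 539 bases from it. As annotated in GENCODE 29 the genes overlap by 3464 bases, and because the strand setting of the counting is not given, fragments in the overlap cannot be assigned to a strand with certainty. The read-through gene HSPE1-MOB4 took at most 16.3 scaled fragments in any library.

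Processed copies of these genes could also take fragments. GENCODE 29 names 26 HSPE1 pseudogenes, whose values summed to 11.9% and 6.94% of HSPE1 in resistant libraries and to 17.2% and 10.4% in parental libraries. Sums for the 17 HSPD1 pseudogenes were 3.94% and 3.53% of HSPD1 in resistant and 4.10% and 3.60% in parental libraries. Copies of HSP90AA1 came to at most 1.86% and those of HSPA8, HSPA9 and HSPB1 to at most 0.318% of their gene in any library. With the copies added to their genes, an alternative chosen after seeing the data, the same number of the 10 genes passed.

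HSPB1, the small chaperone HSP27 that holds unfolded proteins and binds actin (chromosome 7, 76302544 to 76304295, plus strand), had 3012 and 3718 in resistant libraries and 4338 and 4968 in parental libraries. The groups were apart, with a wide spread in each. The means of 3365 ± 499 in resistant and 4653 ± 446 in parental cells (SD, n = 2 each) gave a 1.39-fold fall, a log2 fold change of −0.47 ± 0.12 (SE; limma, adjusted p = 0.0153). Without resistant replicate 1 it was −0.32 and did not pass (adjusted p = 0.0729). HSPB1 was the 1 member of 4 tested among 9 small heat shock protein genes to pass, and the list had 0 calls without resistant replicate 1. HSPB8, a partner of BAG3 in selective autophagy, did not pass (log2 fold change −0.08 ± 0.12, adjusted p = 0.642). CRYAB, αB-crystallin, was low, with 36.9 and 17.8 in resistant and 27.7 and 14.3 in parental libraries.

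BAG3, a scaffold that ties HSP70 to HSPB8 and to autophagy and is itself a target of HSF1 (chromosome 10, 119651370 to 119677819, plus strand), did not pass the test. It had 3056 and 3774 in resistant libraries and 3248 and 3738 in parental libraries, and these overlapped. The log2 fold change of −0.04 ± 0.12 had an interval of −0.31 to 0.23 at 95% confidence (limma, adjusted p = 0.836), an interval that excludes a fall as large as the median of the 10 genes. Its sign turned with the scaling, to 0.0061 with TMM factors and 0.058 with library totals alone, and it was 0.12 without resistant replicate 1 and 0.064 without parental replicate 2.

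**Figure D2:**
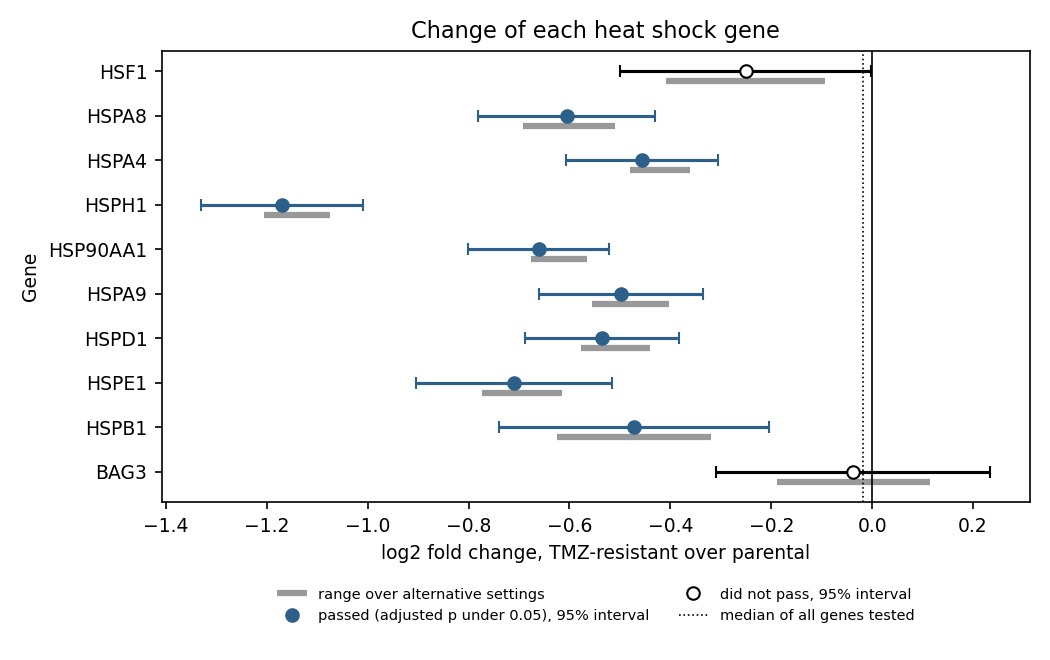
Log2 fold change of the 10 genes, resistant over parental, with its 95% interval (limma; filled, passed; open, did not pass), and as grey bars the range over 14 alternative settings. HSPH1 at −1.17 stands apart from the others that fell, between −0.71 and −0.46, the interval of HSF1 ends just below 0, and that of BAG3 includes 0.

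BAG3 lies on the long arm of chromosome 10 among genes that were mostly higher in resistant cells. Of 43 tested coding genes that start within 5 Mb of it, 26 rose and 2 fell, where 16.2% and 20.9% of all genes tested did, and their median log2 fold change was 0.44. Within 2 Mb 10 of 17 rose and 1 fell. Within 5 Mb of the other 9 genes, neighbour medians ran from −0.19 around HSPD1 and HSPE1 to 0.02 around HSPA9 and HSF1. Within 2 Mb of HSPD1 and HSPE1, 6 of 15 neighbours fell and 1 rose, with a median of −0.36 beside their own −0.54 and −0.71. Around HSPH1, 7 of 31 neighbours within 5 Mb rose and 11 fell, against the same 16.2% and 20.9% of all genes, with a median of −0.09 beside its own −1.17. Within 2 Mb of HSPH1, 5 of 12 fell and 2 rose, with a median of −0.19. The nearest tested coding neighbour of HSPH1, B3GLCT, fell, at −0.71. The part of these neighbourhoods in the values of BAG3, HSPD1, HSPE1 and HSPH1 was not tested.

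**Figure D3:**
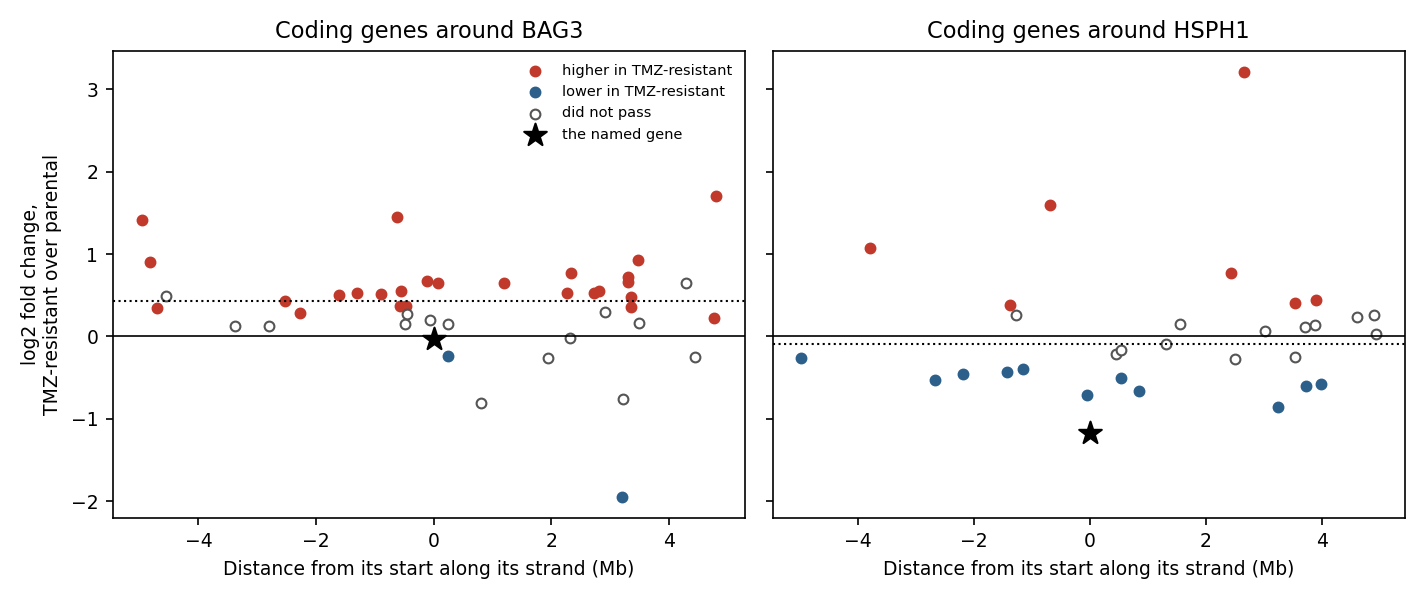
Log2 fold changes, resistant over parental, of coding genes within 5 Mb of BAG3 (left) and HSPH1 (right), by distance from the start of the named gene (star), with the neighbours' median as a dotted line. Around BAG3 the median is 0.44 and 26 of 43 neighbours rose, while around HSPH1 it is −0.09 and 7 of 31 rose.

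Per kilobase of exon, counted over all annotated exons of a gene, the order of levels in resistant cells was HSP90AA1, HSPA8, HSPD1, HSPA9, HSPA4, HSPB1, BAG3, HSPE1, HSPH1 and HSF1. HSP90AA1 stood at 9612 ± 39.1 and HSF1 at 498 ± 15.2 scaled fragments per kilobase (SD, n = 2 each). Neighbours in this order whose resistant libraries overlapped were HSPA9 with HSPA4, HSPA4 with HSPB1, and HSPE1 with HSPH1. In parental cells HSP90AA1 stood at 15202 ± 224 and HSF1 at 596 ± 91.6 per kilobase, and the first 6 places were the same. HSPH1 was seventh there and ninth in resistant cells, at 606 ± 21.8 in resistant and 1363 ± 27.9 in parental cells.

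The wider chaperone network was described by 12 lists holding 96 symbols, chosen with earlier results of these data known. Outside the 10 genes, 35 of 74 tested IDs on these lists fell and 9 rose. Over all genes tested the shares were 20.9% lower and 16.2% higher, and 35.2% and 15.1% among genes with a mean value of at least 1000, so the number that rose is not above either background. Of 14 HSP90 co-chaperones 13 fell and 0 rose, with a median log2 fold change of −0.47, and 7 fell when limma was run without the mean-variance trend. CHORDC1 fell 2.12-fold to 1029 and 1002 in resistant libraries, against 2126 and 2183 in parental libraries (adjusted p = 9.18e-05). STIP1, which hands clients from HSP70 to HSP90, fell 1.81-fold (adjusted p = 2.51e-04). The immunophilin FKBP5 fell 1.76-fold (adjusted p = 2.10e-04) and NUDC, a co-chaperone with a role in nuclear movement, 1.74-fold (adjusted p = 2.46e-04). The kinase adaptor CDC37 fell 1.25-fold, and UNC45A, a myosin chaperone, was the member that did not pass, at 0.03 ± 0.09 (adjusted p = 0.806).

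Of 10 chaperonin genes 8 fell and 0 rose, with a median of −0.55, where 20.9% of all genes tested fell. Among genes with a mean value of at least 1000, 35.2% fell. With library totals alone, or without the mean-variance trend, 6 of the 10 fell. Apart from HSPD1 and HSPE1 the genes of this list encode the cytosolic ring that folds actin and tubulin. Its subunits CCT6A and TCP1 fell 1.74-fold and 1.57-fold (limma, adjusted p = 1.43e-04 and 4.05e-04) and CCT5 1.48-fold (adjusted p = 5.32e-04). CCT7 and CCT8, of the same ring, did not pass, at −0.0029 ± 0.07 and −0.18 ± 0.07 on the log2 scale (adjusted p = 0.978 and 0.075). Of 5 tested prefoldin subunits, which feed this ring, PFDN1 fell 1.33-fold and PFDN5 rose 1.26-fold (adjusted p = 0.00429 and 0.0216). The prefoldin count is small: the rise was lost without resistant replicate 1, resistant replicate 2, parental replicate 2 or the mean-variance trend, which left 0, and without parental replicate 1 the count lower was 2.

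Among exchange factors of HSP70, BAG3 included, 5 of 9 tested members fell and 2 rose, with a median of −0.46, and 3 fell without the mean-variance trend. Shares were 20.9% lower and 16.2% higher over all genes tested, and 35.2% and 15.1% among those with a mean value of at least 1000. No excess is read from the 2 that rose. BAG2 fell 2.02-fold, to 781 and 763 in resistant libraries, against 1455 and 1682 in parental libraries (limma, adjusted p = 2.45e-04). BAG1 fell 1.81-fold and BAG5 1.44-fold (adjusted p = 3.32e-04 and 0.00197). SIL1, the exchange factor of the endoplasmic reticulum, rose 1.47-fold (adjusted p = 0.00199), and the mitochondrial factors split, with GRPEL1 falling 1.42-fold and GRPEL2 rising by 0.27 on the log2 scale (adjusted p = 0.00728 and 0.0271). Leaving out any 1 of the 4 libraries, or the mean-variance trend, left 1 member higher in this list.

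Among 8 J-domain partners of cytosolic HSP70, 3 fell and 2 rose, with a median of −0.11. Over all genes tested 20.9% fell and 16.2% rose, and among genes with a mean value of at least 1000 the shares were 35.2% and 15.1%. DNAJB2, DNAJB4 and DNAJA4 lie below that level, and no excess is read from counts this small. DNAJA1 fell 1.76-fold and DNAJB1, an inducible partner in disaggregation, 1.40-fold (limma, adjusted p = 3.93e-04 and 0.00192). DNAJB6, known for suppressing polyglutamine aggregates, rose 1.33-fold, and DNAJB2 1.47-fold (adjusted p = 0.00324 and 0.00833). Without resistant replicate 2, or without the mean-variance trend, the list had 1 member higher.

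Of 9 tested IDs in the HSP70 family, 4 fell and 2 rose, where 20.9% of all genes tested fell and 16.2% rose. Among genes with a mean value of at least 1000 the shares were 35.2% and 15.1%. HSPA14, a chaperone at the ribosome, accounts for 2 of the 4 IDs that fell. It is listed under a pair of IDs whose fragments may be divided with error, and no excess is read from counts this small. HSPA2, best known from testis, rose 2.36-fold, with 584 and 723 in resistant libraries and 258 and 293 in parental libraries (limma, adjusted p = 4.46e-04). HSPA13 rose 1.28-fold (adjusted p = 0.0211), and the list had 1 member higher without resistant replicate 1, without parental replicate 1 or without the mean-variance trend. HSPA5, BiP of the endoplasmic reticulum, did not pass (log2 fold change 0.09 ± 0.07, adjusted p = 0.326). The log2 ratio of HSPA8 to HSPA5, per kilobase, was 0.70 and 0.80 in resistant and 1.59 and 1.31 in parental libraries, without overlap (exact two-sided permutation test, p = 0.333).

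The strongly heat-inducible HSP70 genes HSPA1A and HSPA1B could hardly be read in these data. HSPA1A was listed at 0 in every library and HSPA1B at 1.91 or less, and HSPA1L, their neighbour in the family, was also listed at 0. They lie in a stretch of chromosome 6 between 29 and 34 Mb where 64.4% of 180 coding genes were listed at 0 throughout, against 13.4% of other coding genes, so no statement on their expression is made from these values. HSPA6, another strictly inducible gene, was low, with 6.78 and 16.985 in resistant libraries and 25.2 and 30.6 in parental libraries (limma, adjusted p = 0.0584). HYOU1 and DNAJA3 were listed at 15.5 or less in every library and did not pass the filter on low values. Whether these values reflect low expression or a loss in counting cannot be told, so no statement on their expression is made either.

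Of 16 tested mitochondrial chaperones and proteases 8 fell and 1 rose, with a median of −0.21 (3 and 0 without the mean-variance trend), where 20.9% of all genes tested fell and 35.2% of those with a mean value of at least 1000. Of the list HSPE1, HSPD1 and HSPA9 had the smallest adjusted p. AFG3L2, a protease of the inner membrane, fell 1.31-fold (limma, adjusted p = 0.00372). The matrix protease LONP1 and the unfoldase CLPX did not pass, both at 0.06 ± 0.08 (adjusted p = 0.586 and 0.623). Leaving out any 1 of the 4 libraries left 0 members higher.

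Of 22 tested heat-inducible targets of HSF1, which include 7 of the 10 genes, 14 fell and 2 rose, against 20.9% and 16.2% of all genes tested and 35.2% and 15.1% of those with a mean value of at least 1000. Among the 14 are HSPH1, HSP90AA1, HSPE1, HSPD1, HSPA8 and HSPB1 of the 10 genes, so the count is in part a repeat of theirs. The list also holds HSPA8 and HSP90AB1, described above as constitutive forms, and both fell. The median log2 fold change of the list was −0.48. HSPH1, CHORDC1, HSP90AA1 and STIP1 had the smallest adjusted p. UBB, which encodes polyubiquitin, rose 1.17-fold (limma, adjusted p = 0.0429). The count of members that rose was not stable: 1 was left without resistant replicate 1, resistant replicate 2 or parental replicate 1, and 0 without parental replicate 2, without robust moderation or without the mean-variance trend. SERPINH1, the collagen chaperone HSP47, did not pass (log2 fold change −0.20 ± 0.17, adjusted p = 0.418).

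**Figure D4:**
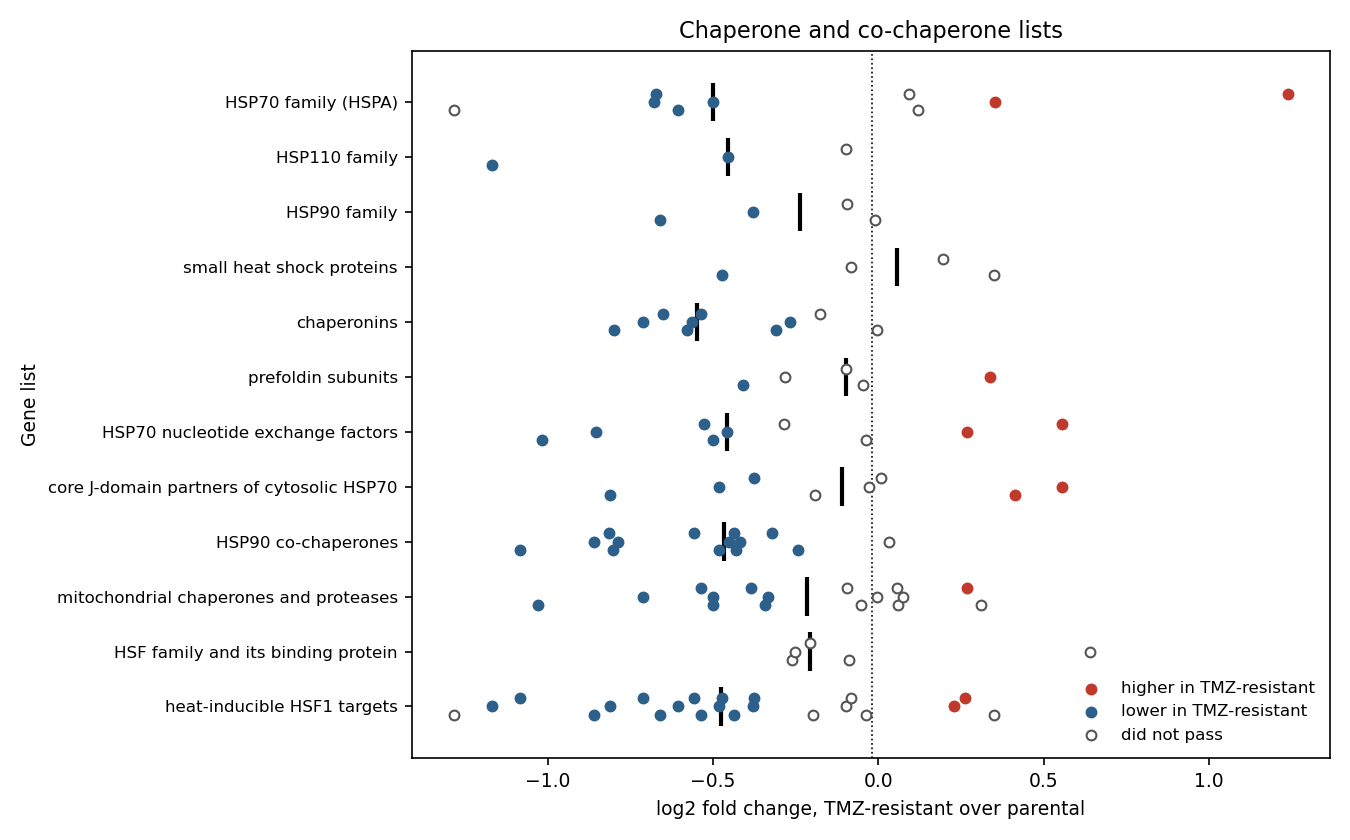
Log2 fold changes, resistant over parental, of the tested members of 12 lists (red, higher; blue, lower; open, did not pass), with each list's median as a black bar and the median of all genes tested as a dotted line. All but 1 of the 14 HSP90 co-chaperones are lower, while HSP70 family and J-domain genes lie on both sides of 0.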

How the data were processed

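Total RNA of 4 libraries was sequenced after strand-specific library construction, per the labels' protocols. Reads were handled on GRCh38.p10 with Cufflinks 2.2.1 and Cuffdiff, SAMtools 1.2, HISAT2 2.1.0, Trimmomatic 0.36 and bcl2fastq, per the submitters' processing notes. How the values were scaled, which annotation release was used and how strand was treated in counting is not stated in the labels. The authors deposited a signal per gene that is not whole. Judged from the values, it is a fragment number multiplied by a factor per library: divided by the estimated factor, 91.2% to 94.1% of values above 0 were whole within 0.05. Because the rest were not, no count test was used, and the fragment totals are estimates.

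Groups and replicate numbers come from the sample titles. Genes with a value of at least 10 in at least 2 libraries and a sum of at least 15 were kept. Values were analysed as log2(value + 1), which understates the change of low genes, with limma 3.58.1 (R 4.3.3), a mean-variance trend and robust moderation. The model held group alone. Two-sided p-values received Benjamini-Hochberg adjustment over all 16132 genes. Symbols come from GENCODE 29, which matched 57881 IDs. Promoter sequences are from RefSeq on GRCh38.p14.

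The 10 genes and the lists were chosen with earlier results of these data known. Named were all 10 genes, the 4 genes of smallest adjusted p in each list or fewer, genes listed at 0, HSPA1A, HSPA1B, HSPA6, DNAJB1, HSP90AB1, HSF2 and CRYAB whatever their result, and the 3 genes most like HSF1. Other list members that are named, and the genes named for the longer motif, were chosen after their values were seen. Alternatives covered scaling, pseudocount, filter, moderation, a replicate block, pseudogenes and leaving out each library. The value of 1 list member is not reported here.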

Additional observations from a re-analysis of the deposited data

How the results depend on the processing

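The number of the 10 heat shock genes that passed ran from 7 to 9 over 14 alternative settings and from 7 to 9 when 1 library was left out. HSPH1, HSP90AA1, HSPA8, HSPA4, HSPA9, HSPD1 and HSPE1 passed as lower in each of the 14. HSPB1 did not pass without the mean-variance trend (adjusted p = 0.111). Leaving out 1 library moved BAG3 between −0.19 and 0.12. It changed sign, without passing, in 4 settings, at 0.0061 with TMM factors, 0.058 with library totals alone, 0.12 without resistant replicate 1 and 0.064 without parental replicate 2. Over all genes 5991 changed, against 3476 without the trend and 3593 to 5476 when 1 library was left out. The share of calls that were higher was 43.7% as deposited, 49.7% under TMM factors and 56.9% under library totals alone. The replicate numbers are tied to no shared day or culture in the labels. Same-numbered libraries deviated together at r = 0.265 across genes, and with the replicate block 8624 genes and 9 of the 10 changed, HSF1 among them (adjusted p = 6.48e-04). Under that block the HSF list had 1 member higher and 2 lower, and prefoldin 2 lower. Without the trend, genes lower numbered 7 in place of 13 for HSP90 co-chaperones, 3 in place of 8 for the mitochondrial list, 3 in place of 5 for exchange factors, 1 in place of 2 for HSP90 and 0 in place of 1 for small heat shock proteins. The cause of these changes was not tested. Where a library was left out, the lone library of its group was assumed to vary like the other group.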
